A study of Mus musculus with 6 samples.

Results

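The 36 genes described here encode factors that build ribosomes in the nucleolus. They were taken as a list of symbols, matched to probe sets annotated with a single gene, and the probe set with the highest mean over all arrays stood for each gene. All 36 were found, among 18193 genes measured in this way. The samples were bone marrow cells of 3 mice lacking the locus of miR-144 and miR-451 (KO, numbered 493, 548 and 551 in the titles) and of 3 wild-type mice (WT, numbered 497, 504 and 550). Cells positive for the erythroid marker Ter119 and for CD71, the transferrin receptor, were sorted by large size into Trizol LS, and the total RNA of each mouse was hybridised to an Affymetrix Mouse Genome 430 2.0 array. The labels name the genotype alone; how the deletion was made, strain, age and sex were not given in the sources used here. A further label sets the same numbers beside the word mir, with an unclear meaning.

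Ribosomes are assembled from ribosomal RNA, which RNA polymerase I transcribes as a long precursor, and from ribosomal proteins imported into the nucleus. Small nucleolar ribonucleoproteins (snoRNPs) modify the precursor, the box C/D class by methylation and the box H/ACA class by pseudouridylation, while a large complex, the small subunit processome, and a series of large subunit particles fold and cut it. Erythroblasts need many ribosomes to make haemoglobin, and inherited defects of ribosome production are known for causing anaemia. The transcripts measured here are messenger RNAs of the assembly factors, not ribosomal RNA or finished ribosomes.

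The deleted locus encodes the microRNAs whose mature sequences follow, shown because their absence defines the KO mice. They are from RefSeq on mouse GRCm38.p6, plus strand of chromosome 11, with the seed (bases 2 to 8) in capitals. miR-451a lies at chr11:78073186-78073207, miR-144-3p at chr11:78073047-78073066 and miR-144-5p at chr11:78073010-78073032. The seeds of all 3 differ from each other.
mmu-miR-451a: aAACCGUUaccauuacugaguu
mmu-miR-144-3p: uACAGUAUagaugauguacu
mmu-miR-144-5p: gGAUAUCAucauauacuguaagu

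No ribosome biogenesis factor passed the test between genotypes, and most lay slightly higher in KO than in WT erythroblasts. The difference, log2 KO minus WT intensity, was above 0 for 31 of 36 factors and below 0 for 5; over all genes 44% were above 0. The median difference was 0.17 for the factors, which is a fold of 1.13, and -0.04 for all genes. Limma with Benjamini-Hochberg adjustment over all 45037 probe sets called 0 of 36 factors at an adjusted p of 0.05, where 0.385% of all genes were called, and the smallest adjusted p of a factor was 0.134. At an unadjusted p of 0.05, 8 of 36 factors passed (22.2%), near the 21% of all genes that did and below the 28.6% of genes in the factors' range of brightness. By direction, 7 of 36 passed higher (19.4%, against 8.34% of all genes) and 1 passed lower, against 12.7% of all genes. The 3 KO values did not overlap the 3 WT values for 10 factors (27.8%). This share was 28.8% over all genes and 38.4% over genes in the factors' range of brightness. In 9 of the 10 factors the KO values were the higher ones (25%, against 12.5% of all genes).

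The median difference of genes of similar brightness lay nearer to 0 than that of all genes. The factors' mean log2 intensities ran from 6.37 to 12.08, and on every array all 36 lay above that array's median of 5.62 to 5.78. Among the 9081 genes whose mean fell in the factors' range the median difference was 0.00, 49.8% were above 0, 13% passed higher at an unadjusted p of 0.05 and 19.4% had all KO values above all WT values. The moderated SE was 0.10 to 0.22 and the 95% interval lay between -1 and 1 for 35 of 36 factors, the exception being Noc3l with an upper bound of 1.01, so a change of 2-fold or more in either direction was outside the interval for those 35. The interval lay between -0.5 and 0.5 for 13 of 36.

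**Figure D1:**
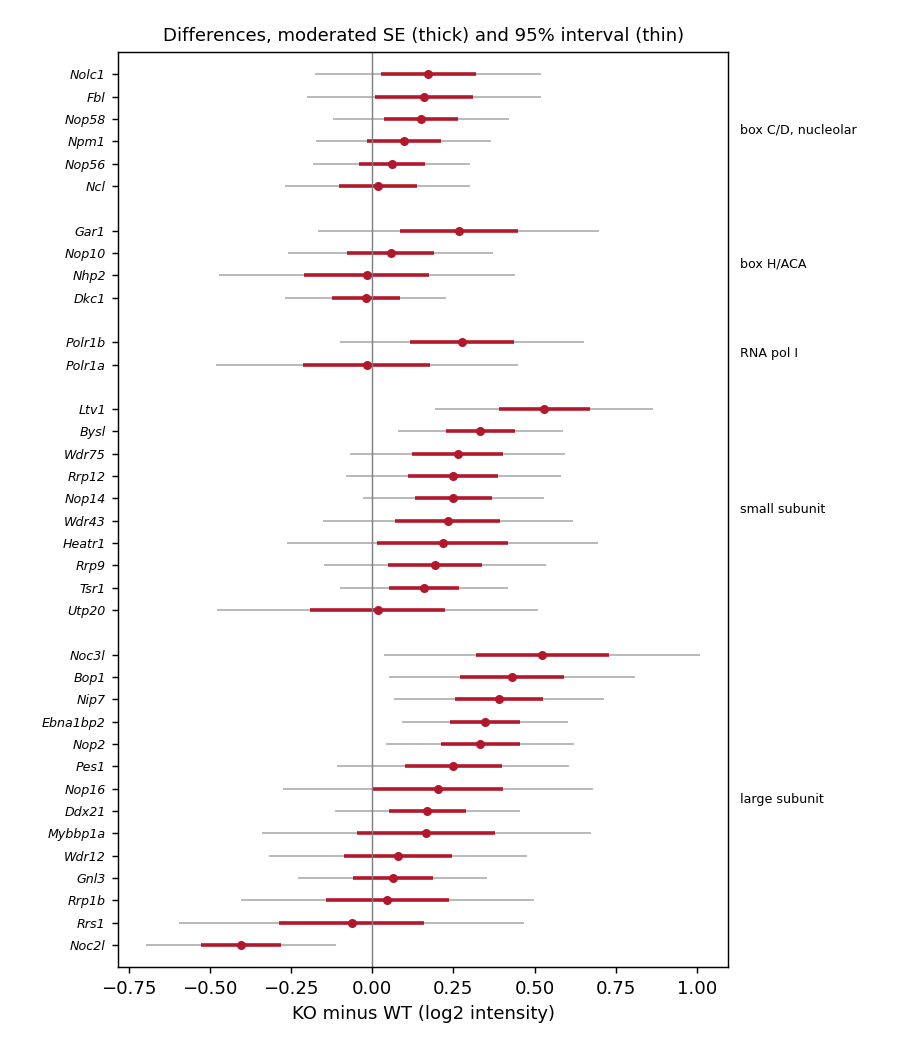
KO minus WT difference (log2 intensity, x axis) of each of the 36 factors, grouped by role, with the moderated standard error as a thick bar and the 95% interval as a thin bar. Of the 36 points 31 lie right of 0, and the interval excludes 0 for 8.

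The arrays did not contribute equally. WT 497 had the lowest value of all 6 arrays for 28 of 36 factors (77.8%), whereas among genes of similar brightness it was the lowest for 18.5%. KO 548 had the highest value for 21 of 36 (58.3%), against 21.8% of genes of similar brightness. The median of the 36 log2 intensities was 9.48, 9.54 and 9.54 in KO 493, 548 and 551, and 9.05, 9.46 and 9.30 in WT 497, 504 and 550. The KO and WT medians do not overlap, but those of KO 493 and WT 504 lie next to each other. Within WT, WT 497 was the lowest for 32 factors and WT 504 the highest for 26; within KO, KO 493 was the lowest for 28 and KO 548 the highest for 25. Without WT 497 the median difference was 0.10, with 25 of 36 factors above 0 and 2 passing higher at an unadjusted p of 0.05. Without KO 548 it was 0.09, with 28 above 0 and 4 passing higher. Without each of the other arrays the median was 0.19 to 0.28 and 31 to 34 factors were above 0. Over all genes 42.3% to 46.9% were above 0 with an array left out. The count of factors passing higher, 7 with all arrays, was 4 without KO 493 and 4 without KO 551 as well. It was 5 without WT 550 and 9 without WT 504. Fewer arrays are fitted there, and the shares of all genes passing are not given for these fits. The counts passing therefore do not measure the part of an array. Of the 31 factors above 0, 24 stayed above 0 whichever array was left out. Single differences moved more: without WT 497 the difference of 20 of 36 factors shrank by over 1.5 times or turned sign, and without KO 548 that of 16. It did so without at least 1 array for 28 factors; the other 8 were Ltv1, Bysl, Nop14, Noc2l, Ebna1bp2, Nip7, Nop2 and Bop1.

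**Figure D2:**
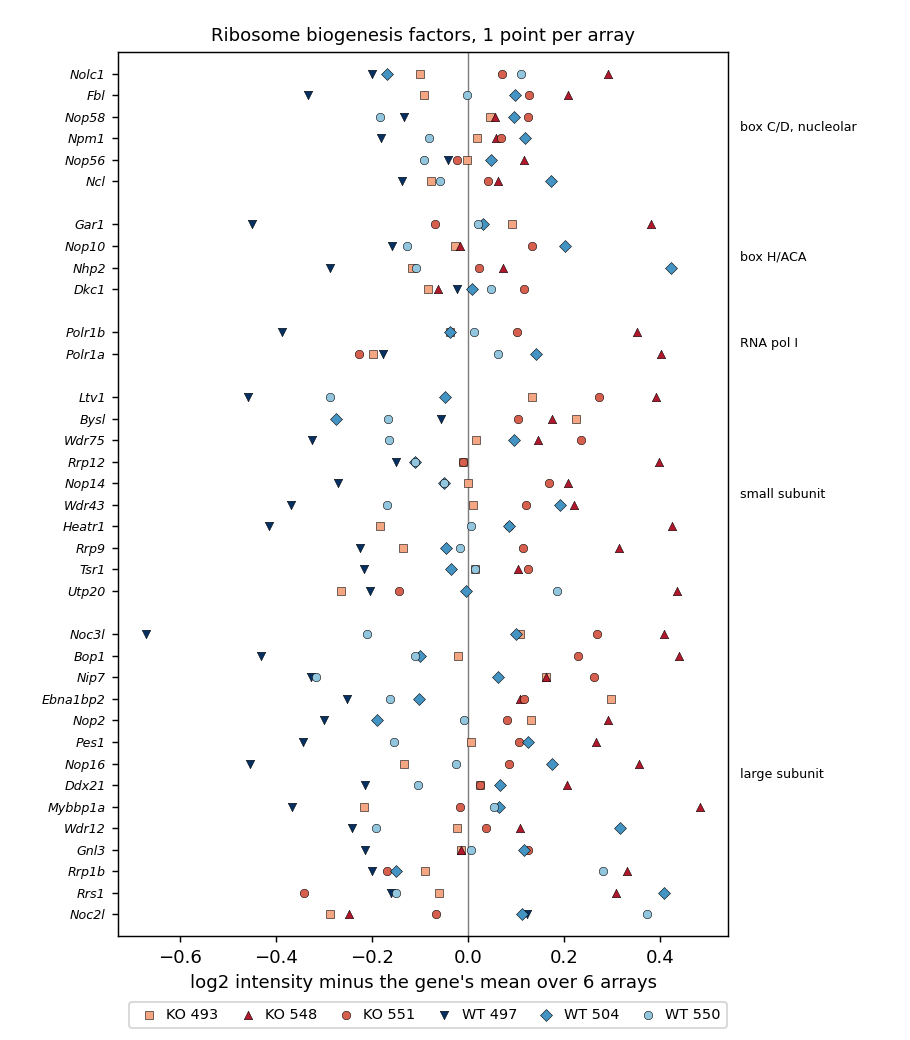
Log2 intensity of each factor on each array minus that gene's mean over 6 arrays (x axis), grouped by role, with KO arrays in reds and WT arrays in blues. WT 497 is the leftmost point in 28 of 36 rows and KO 548 the rightmost in 21.

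**Figure D3:**
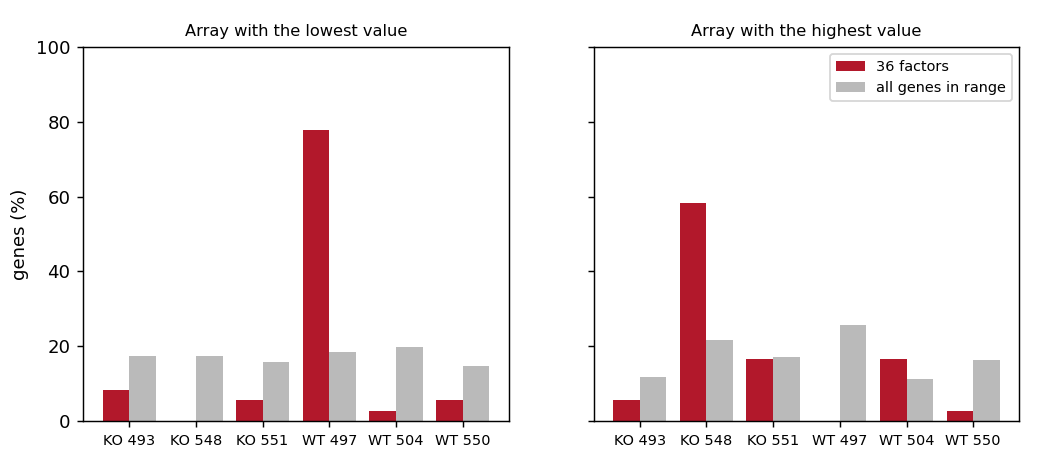
Percentage of the 36 factors, and of the 9081 genes of similar brightness, whose lowest (left panel) or highest (right panel) value lies on each array. The factors' lowest values fall on WT 497 in 77.8% and their highest on KO 548 in 58.3%.

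The sort and the RNA were checked on the same arrays. Of 12 listed erythroid genes 8 were measured, and 7 of these lay between 11.01 and 13.11 as group means (log2 intensity); the exception was the probe set of Hba-a1, which was dim on all arrays. The summed intensity of the 8 was 38054 to 39562 in KO and 39982 to 41861 in WT. Of these 8 genes 7 were below 0, 1 of them at an unadjusted p of 0.05. Markers of other blood cells were mostly lower in KO, though 0 were called. Of 41 measured markers in 6 lists 37 were below 0, with a median of -0.30, where 10185 of all 18193 genes were below 0. At an unadjusted p of 0.05, 14 of the 41 passed lower (34.1%, against 12.7% of all genes). Summed intensities were 4199 to 4334 in KO and 5390 to 5837 in WT for early progenitor markers, and 41254 to 45831 in KO and 47292 to 51510 in WT for neutrophil markers. They were 7282 to 8241 in KO and 8943 to 10522 in WT for macrophage markers. For B lineage markers they were 5204, 3953 and 3755 in KO 493, 548 and 551, and 9888, 5292 and 5390 in WT 497, 504 and 550. The B lineage sums of KO 493 and WT 504 thus lay next to each other. For T and NK markers the sums were 650 to 1012 in KO and 1222 to 1681 in WT, and for megakaryocyte markers 5356 to 6534 in KO and 5530 to 5942 in WT. WT 497 had the highest sum for B lineage, T and NK, and neutrophil markers. The highest sum was on WT 504 for macrophage, WT 550 for early progenitor and KO 548 for megakaryocyte markers. The KO and WT ranges overlapped for megakaryocyte markers and lay apart, lower in KO, for the other 5 lists and for the erythroid genes. None of these other-cell markers was below the 25th percentile on all arrays. The actin 3' minus 5' signal, a measure of RNA length, was 1.82 to 1.86 in KO and 1.65 to 1.67 in WT. The part of any of these in the factors' differences was not tested, and in such bulk samples fewer cells of a type and less RNA per cell cannot be told apart.

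The small subunit factors were above 0 throughout, 10 of 10, with a median difference of 0.24. At an unadjusted p of 0.05, 2 passed (20%, against 21% of all genes). Both passed higher, where 8.34% of all genes and 13% of genes of similar brightness passed higher. Ltv1, which accompanies the 40S precursor into the cytoplasm, had the smallest p of the 36. Its log2 intensity was 8.72, 8.98 and 8.86 in KO 493, 548 and 551, and 8.13, 8.54 and 8.30 in WT 497, 504 and 550. Every KO value lay above every WT value, and the difference of 0.53 ± 0.14 (moderated SE, n = 3 per group; fold 1.44) had an adjusted p of 0.134 by limma. Bysl, the mammalian bystin needed for processing of the 40S precursor, was at 10.03, 9.98 and 9.91 in KO and 9.75, 9.53 and 9.64 in WT. Here WT 497 was the highest of the WT arrays, unlike for most factors, and the difference was 0.33 ± 0.11 (adjusted p = 0.172). Leaving out any single array kept the Ltv1 difference between 0.43 and 0.64 and that of Bysl between 0.28 and 0.39.

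The other small subunit factors had differences of 0.02 to 0.26. Nop14, a processome subunit, was at 0.25 ± 0.12, and Rrp12, which helps export the precursor particles, at 0.25 ± 0.14. Both had KO values above all WT values, Rrp12 with 7.70 in KO 548 but 7.29 in KO 493 and KO 551, against 7.15 to 7.19 in WT; without KO 548 its difference was 0.11. The processome subunits that also act in transcription of the precursor, Wdr75 (0.26 ± 0.14), Wdr43 (0.23 ± 0.16) and Heatr1 (0.22 ± 0.20), overlapped between groups. So did Rrp9, a protein of the U3 snoRNP (0.19 ± 0.14), and Utp20 (0.02 ± 0.21). For Utp20, KO 548 at 8.52 was the highest and KO 493 at 7.82 the lowest array. Its difference was -0.20 without KO 548, so its sign is not settled.

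Of the 14 large subunit factors 12 were above 0, with a median difference of 0.19. At an unadjusted p of 0.05, 5 passed higher (35.7%, against 8.34% of all genes and 13% of genes of similar brightness) and 1 passed lower, where 12.7% of all genes did. Noc2l, whose yeast counterpart binds early pre-60S particles and which also inhibits histone acetylation, was at 9.48, 9.52 and 9.70 in KO and 9.89, 9.88 and 10.14 in WT. Every KO value lay below every WT value, and the difference was -0.40 ± 0.12 (adjusted p = 0.162; -0.47 to -0.32 with any array left out). Its second probe set was at -0.03, so the 2 probe sets disagree on the size. Ebna1bp2, whose yeast counterpart acts in an early 60S step, was at 9.56, 9.37 and 9.38 in KO and 9.01, 9.16 and 9.10 in WT, a difference of 0.35 ± 0.11 (adjusted p = 0.165) with no overlap. Its 2 other probe sets, dim with group means of 3.04 to 4.31, were at -0.13 and 0.18, and the average of all 3 was at 0.13 (adjusted p = 0.822).

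A further 4 large subunit factors passed higher at an unadjusted p of 0.05; their values are given by a choice made after they were seen. Nip7, whose yeast counterpart binds the pre-60S particle, was at 9.47, 9.47 and 9.57 in KO and 8.98, 9.37 and 8.99 in WT (difference 0.39 ± 0.14, adjusted p = 0.195). Nop2, a methyltransferase acting on the large ribosomal RNA, was at 8.89, 9.05 and 8.84 in KO and 8.46, 8.57 and 8.75 in WT (0.33 ± 0.12, adjusted p = 0.208). In both the groups were apart, by 0.10 for Nip7 and by 0.09 for Nop2 between the nearest KO and WT arrays. Bop1 forms the PeBoW complex with Pes1 and Wdr12; it was at 8.09, 8.55 and 8.34 in KO and 7.68, 8.01 and 8.0 in WT (0.43 ± 0.16, adjusted p = 0.212). Its partners had smaller differences, 0.25 ± 0.15 for Pes1 and 0.08 ± 0.17 for Wdr12, and overlapping groups. Noc3l, whose yeast counterpart helps pre-60S particles mature, was at 8.09, 8.39 and 8.25 in KO and 7.31, 8.08 and 7.77 in WT (0.52 ± 0.20, adjusted p = 0.228). The lowest KO value and the highest WT value of Noc3l were 0.01 apart, and WT 497 was 0.46 below the next WT array; without it the difference was 0.32.

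The remaining large subunit factors overlapped between groups. Nop16 was at 0.20 ± 0.20, the RNA helicase Ddx21 at 0.17 ± 0.12, and Mybbp1a, a nucleolar protein that also binds MYB, at 0.17 ± 0.21. Gnl3, the GTPase nucleostemin, was at 0.06 ± 0.12, Rrp1b at 0.05 ± 0.19 and Rrs1, which brings the 5S particle into the pre-60S, at -0.06 ± 0.22. For Gnl3, Rrp1b, Rrs1 and Wdr12 the sign turned when certain single arrays were left out, and that of Mybbp1a turned to -0.03 without KO 548.

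The box C/D proteins and nucleolar organisers were the least different group in size with a shared sign. All 6 were above 0, between 0.02 and 0.17 with a median of 0.12, 0 passed at an unadjusted p of 0.05, and in all 6 the groups overlapped. Nop58, a core protein of the C/D particle, was at 10.33, 10.34 and 10.41 in KO and 10.15, 10.38 and 10.10 in WT (0.15 ± 0.11, adjusted p = 0.505). Nolc1, a chaperone of snoRNPs, was at 9.89, 10.28 and 10.06 in KO and 9.79, 9.82 and 10.10 in WT (0.17 ± 0.15, adjusted p = 0.551). In Nop58 the highest WT array lay inside the KO range, and in Nolc1 both KO 493 and KO 551 lay below WT 550. Fbl, the methyltransferase fibrillarin, was at 0.16 ± 0.15, and Nop56, the partner of Nop58, at 0.06 ± 0.10. Npm1, nucleophosmin, had the brightest probe set of the 36, at 12.10, 12.14 and 12.15 in KO and 11.90, 12.20 and 12 in WT (0.10 ± 0.11). Ncl, nucleolin, was at 0.02 ± 0.12, with a 95% interval of -0.27 to 0.30, and without WT 497 at -0.05.

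The box H/ACA proteins showed no common sign, with 2 above 0 and 2 below 0, a median of 0.02 and 0 passing at an unadjusted p of 0.05. Gar1, Nop10, Nhp2 and Dkc1 form the core of the H/ACA particle. Gar1 was at 9.80, 10.09 and 9.64 in KO and 9.26, 9.74 and 9.73 in WT (0.27 ± 0.18, adjusted p = 0.458; 0.11 without WT 497 and 0.14 without KO 548). Nop10 was at 11.57, 11.58 and 11.73 in KO and 11.44, 11.80 and 11.47 in WT (0.06 ± 0.13, adjusted p = 0.848). For Gar1, KO 551 lay below WT 504 and WT 550; for Nop10, WT 504 lay above every KO array. Dkc1, the pseudouridine synthase dyskerin, was at -0.02 ± 0.10 and Nhp2 at -0.02 ± 0.19. For Nhp2, WT 504 at 9.40 was 0.53 above the next WT array, and the difference without it was 0.19. With an array left out the range was -0.083 to 0.017 for Dkc1, -0.16 to 0.19 for Nhp2 and -0.0083 to 0.17 for Nop10. The signs of these genes are therefore not settled.

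The 2 RNA polymerase I subunits, which form the catalytic core, also differed in sign. Polr1b, the second largest subunit, had the dimmest probe set of the 36, at 6.33, 6.72 and 6.47 in KO and 5.98, 6.33 and 6.38 in WT (0.28 ± 0.16, adjusted p = 0.378; 0.15 without WT 497 and 0.17 without KO 548). KO 493 and WT 504 had the same value. Polr1a, the largest subunit, was at -0.02 ± 0.20 by its brightest probe set. With an array left out it was at -0.22 to 0.093, so its sign is not settled. Its other 4 probe sets ran from -0.53 to 0.22, the lowest of them passing at an unadjusted p of 0.05 (adjusted p = 0.151), and the sizes disagree.

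Other probe sets of the same genes give a partly independent reading, on the same RNA and arrays. The 36 genes had 74 probe sets; 10 genes had 1, 18 had 2, 6 had 3 and 2 had 5, and 0 of the 74 were called. Of the 38 probe sets not chosen, 26 had the sign of the chosen one. Of the 30 with a mean of at least 6, 22 had it and 17 were above 0. By comparison, 31 of the 36 chosen probe sets and 49.8% of genes of similar brightness were above 0. The other bright probe sets thus lay above 0 less often than the chosen ones. The second probe sets of Noc3l (0.67), Bysl (0.49) and Nip7 (0.35) also passed higher at an unadjusted p of 0.05. Those of Nop16 (0.28) and Wdr43 (0.34) passed where the chosen one did not. The second probe set of Bop1 was at -0.11, but at means of 4.09 in KO and 4.21 in WT it was dim; with both averaged Bop1 was at 0.16. Heatr1 had a probe set at -0.26 beside the chosen one at 0.22.

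**Figure D4:**
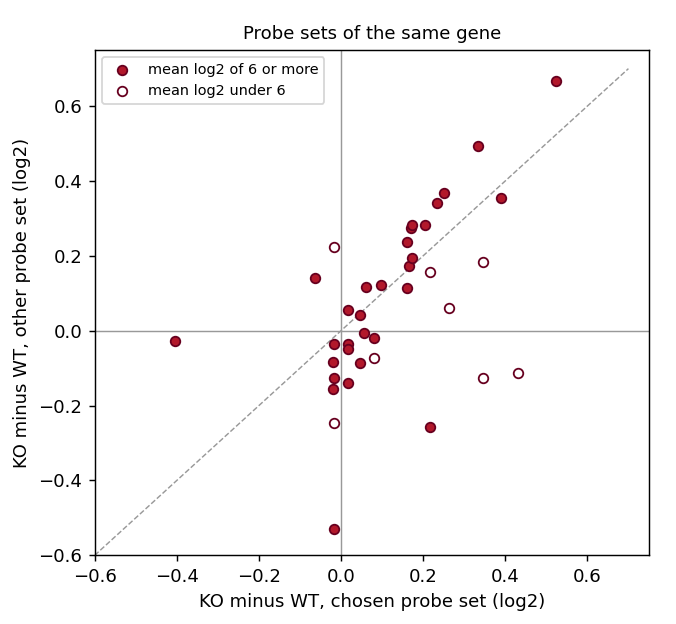
KO minus WT difference (log2) of each of the 38 other probe sets (y axis) against that of the chosen probe set of the same gene (x axis), filled where the mean log2 intensity is 6 or more. The dashed line marks equality; 26 of 38 points share the sign of the chosen probe set.

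Since the deleted locus lies on chromosome 11, the factors there are given separately. Chromosome 11 carries 5 of the 36: Pes1, Npm1, Nhp2, Mybbp1a and Tsr1, of which Tsr1 is closest, 61 measured genes from the locus in RefSeq's gene order (GRCm38.p6). Their median was 0.16 with 4 above 0 and 0 passing at an unadjusted p of 0.05. Over all 1443 measured genes of chromosome 11 the median was -0.03, 43.9% were above 0 and 23.4% passed. Limma called 12 of these 1443 genes higher and 11 lower, against 43 higher and 27 lower among all 18193 genes. The 31 factors elsewhere had a median of 0.19, and 8 of them passed (25.8%, against 21% of all genes). Tsr1, a GTPase-like factor of late 40S maturation, was at 9.01, 9.10 and 9.12 in KO and 8.78, 8.96 and 9.01 in WT (0.16 ± 0.11, adjusted p = 0.456). Mybbp1a was at 10.19, 10.89 and 10.39 in KO and 10.04, 10.47 and 10.46 in WT. Pes1 was at 8.71, 8.97 and 8.81 in KO and 8.36, 8.83 and 8.55 in WT, and Nhp2 at 8.86, 9.05 and 9.0 in KO and 8.69, 9.40 and 8.87 in WT. All 5 overlapped between groups.

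Other genes of ribosome production lay on the same side. In 5 lists of 130 further measured factors, 113 were above 0 with a median of 0.22; 37 passed higher at an unadjusted p of 0.05 (28.5%, against 8.34% of all genes and 13% of the 9081 genes in the 36 factors' range of brightness) and 2 passed lower, where 12.7% of all genes did. Limma called 1 of the 130, Nle1. WT 497 was the lowest array for 45.4% of the 130 and KO 548 the highest for 38.5%. The median of the 130 was 0.18 without WT 497, 0.19 without KO 548, and 0.21 to 0.27 without each other array. At an unadjusted p of 0.05, 23 and 24 passed higher without WT 497 and without KO 548, 20 without WT 550 and 22 without KO 551. Fewer arrays are fitted there too, so these counts cannot be set against the shares above. These lists and the 36 factors were chosen with results of these arrays known, so their shared side is a description.

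Nle1, a factor of 60S maturation, was at 7.83, 8.13 and 8.14 in KO and 5.71, 6.18 and 5.98 in WT, and rose by 2.08 ± 0.16 (adjusted p = 0.012). It lies on chromosome 11, 75 measured genes from the locus, and its call was lost without WT 550, KO 548 or KO 551 (adjusted p = 0.0551, 0.0721 and 0.0599). Among 49 other small subunit factors 45 were above 0, with a median of 0.27, and 21 passed higher (42.9%) and 1 lower at an unadjusted p of 0.05. The smallest p there belonged to Dcaf13, a processome subunit, at 10.90, 11.05 and 11.02 in KO and 10.51, 10.53 and 10.39 in WT (0.51 ± 0.10, adjusted p = 0.0893). It was called with an intensity trend in the variance prior (adjusted p = 0.00965) and with dim probe sets left out (adjusted p = 0.0313). These settings called 1593 and 1201 probe sets over the whole table, against 160 without them. Of 42 other 60S factors, 38 were above 0 with a median of 0.23, and 9 passed higher (21.4%) and 1 lower. These shares, and those of the lists that follow, stand against 8.34% of all genes passing higher and 12.7% passing lower.

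Of 13 further genes of the polymerase I machinery 11 were above 0, with a median of 0.17 and 2 passing higher (15.4%). Ttf1, which terminates polymerase I transcription, was at 7.85, 7.60 and 7.73 in KO and 6.98, 7.04 and 7.36 in WT (0.60 ± 0.14, adjusted p = 0.112); with its probe sets averaged the difference was 0.24 (adjusted p = 0.216). The nuclear exosome list, which trims the precursor, had 12 of 16 above 0 with a median of 0.13 and 4 passing higher (25%). Exosc4, an exosome ring subunit, was at 10.43, 10.32 and 10.46 in KO and 10.02, 9.92 and 10.04 in WT (0.41 ± 0.10, adjusted p = 0.121). It was called with the intensity trend (adjusted p = 0.031) and with dim probe sets left out (adjusted p = 0.0445). These are the settings with 1593 and 1201 probe sets called over the whole table. In snoRNP assembly 7 of 10 were above 0 with a median of 0.21 and 1 passing higher (10%), Ruvbl1, an ATPase of the assembly machinery, at 10.03, 10 and 9.95 in KO and 9.66, 9.71 and 9.76 in WT (0.28 ± 0.10, adjusted p = 0.186).

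The MYC network and growth regulators, upstream of ribosome production in many cells, were split between the sides. The list holds MYC itself together with genes that oppose it, such as Mxd3. A shared sign could therefore not be looked for, and the split says nothing of the network's activity. Of 16 measured genes 8 were above 0 and 8 below 0, with a median of 0.02, and 0 passed higher and 2 lower at an unadjusted p of 0.05. Mxd3, which pairs with MAX and competes with MYC, was at 11.81, 11.80 and 11.81 in KO and 12.08, 12 and 12.16 in WT (-0.27 ± 0.10, adjusted p = 0.202). It was called with the intensity trend (adjusted p = 0.0269), where 1593 probe sets were called over the whole table. It was also called when its probe sets were averaged (-0.83, adjusted p = 0.0437).

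**Figure D5:**
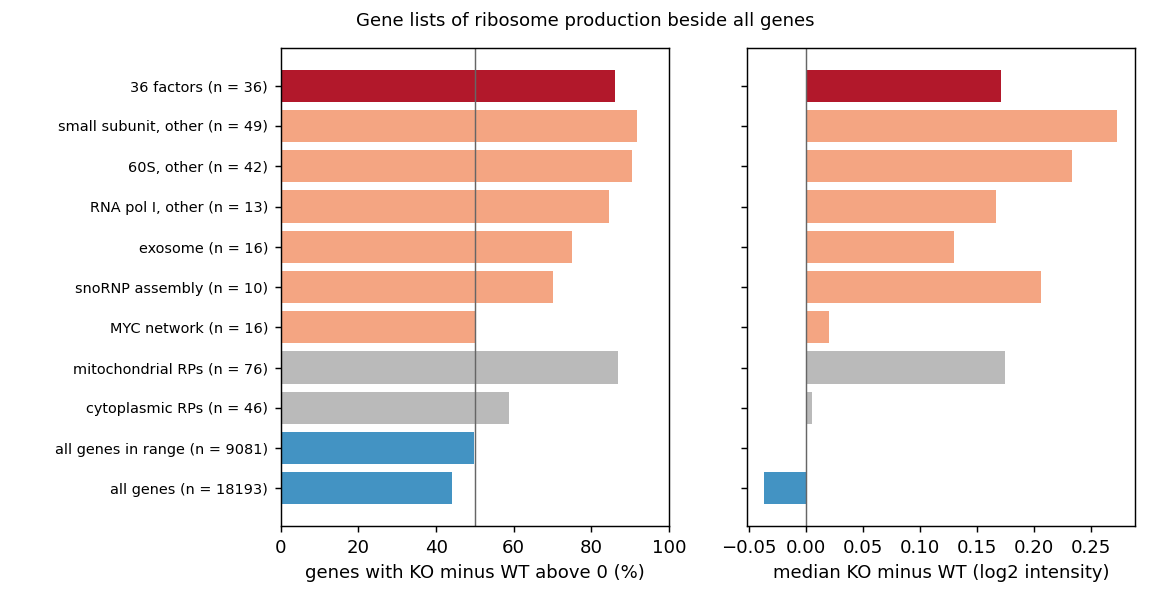
Percentage of genes with KO minus WT above 0 (left panel) and median KO minus WT in log2 intensity (right panel), for the 36 factors, other lists of ribosome production, ribosomal proteins (RPs) and all genes. The 36 factors stand at 86.1% and 0.17, all genes at 44% and -0.04.

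Promoter windows from RefSeq (GRCm38.p6, 250 bases before to 50 after the start) were found for 31 of the 36 genes. They were searched on both strands for CACGTG, the E-box that MYC and related proteins bind, for GGAAGT, an ETS-type sequence, and for AGATAA, which the erythroid regulator Gata1 can bind. A gene with several starts counted as holding a motif if any of its windows did. Each motif was counted by itself, so a base in matches to more than 1 motif counted for each. CACGTG was in 7 of 31 (22.6%), in 8.09% of all 27025 genes with a window and in 10.2% of the 14452 measured ones. GGAAGT was in 18 of 31 (58.1%), against 26.5% of all genes and 29.0% of measured ones, and AGATAA in 0 of 31, against 12.7% and 9.54%. The genes with CACGTG were Ltv1, Nop2, Wdr43, Utp20, Pes1, Tsr1 and Mybbp1a, whose differences ran from 0.02 to 0.53. In Nop2 the match begins at position -60 from the start; in the other 6 it lies after the start. A match is a description of letters and says nothing of binding in these cells.

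The 150 bases before the start are shown for 3 genes with KO values above all WT values that differ in these motifs, with matches in capitals. Ltv1 (chr10:13193138-13193287, minus strand) holds GGAAGT once on each strand, written ACTTCC where it is on the other one, Nop2 (chr6:125131733-125131882, plus strand) holds CACGTG, and Bysl (chr17:47611493-47611642, minus strand) holds none in this stretch.
Ltv1: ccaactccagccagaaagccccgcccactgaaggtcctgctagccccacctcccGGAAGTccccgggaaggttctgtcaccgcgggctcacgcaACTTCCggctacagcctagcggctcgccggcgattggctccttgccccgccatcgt
Nop2: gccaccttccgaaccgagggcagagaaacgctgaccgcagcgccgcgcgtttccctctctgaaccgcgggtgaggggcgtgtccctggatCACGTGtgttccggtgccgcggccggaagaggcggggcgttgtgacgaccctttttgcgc
Bysl: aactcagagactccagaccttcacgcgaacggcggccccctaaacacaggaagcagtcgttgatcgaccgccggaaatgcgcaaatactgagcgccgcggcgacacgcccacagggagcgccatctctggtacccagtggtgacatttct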

How the data were processed

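The deposited values were probe-set intensities on a linear scale, made by the authors with RMA per the submitters' processing notes, which give no software or version; the background step and annotation were not given in the sources used here. The deposited arrays did not share 1 distribution: their median log2 intensities were 5.62 to 5.68 in KO and 5.73 to 5.78 in WT, so how far a normalization step had removed shared shifts is not known. On the log2 scale the deposited intensities had 2 decimals (100% within 0.005 of such a value before the log), so log2 was taken with no pseudocount. Of 45101 probe sets, 64 controls were left out and 45037 tested; GEO's platform annotation named 1 gene for 34945 of these. Differences are log2 KO minus WT, tested with limma 3.58.1 in R 4.3.3 (lmFit, eBayes, no covariate), adjusted by Benjamini-Hochberg over all probe sets, with 3 arrays per group and separate mice per the series' design text. SEs and 95% intervals are limma's moderated ones (6.83 degrees of freedom). The script was tested on simulated data. The members and gene lists were chosen with earlier results of these data known. Named factors are the 2 with the smallest p per role (1 for the polymerase), the brightest, the dimmest and those on chromosome 11; per further list, up to 3 called genes or otherwise the one with the smallest p. Alternatives were quantile and cyclic loess normalization, median centring, a filter at a mean log2 of 6, an intensity trend with robust prior, other probe-set choices, and leaving out each array. No columns of values were left unused (0). Gene symbols were updated through RefSeq (GRCm38.p6), which also gave promoters and microRNAs. The number of arrays limits the precision.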

Additional observations from a re-analysis of the deposited data

How the results depend on the processing

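None of the 36 factors was called in any of 13 alternatives; the smallest adjusted p was 0.0658, for Ltv1 with dim probe sets left out, and 0.0751 with the intensity trend. The factors' median stayed above 0, at 0.16 to 0.28 over the fits of all arrays and 0.09 to 0.28 with an array left out. Subtracting array medians moved the median of all genes by 0.11, to 0.07, with 61.2% of genes then above 0 in place of 44%; the factors' median was then 0.28, with 35 of 36 above 0. Quantile normalization put 33 of 36 above 0 and cyclic loess 32. Averaging probe sets left 5 factors at an unadjusted p of 0.05 and 30 above 0. With an array left out this count was 3 to 10, the count passing higher 2 to 9 and the count of factors without overlap 10 to 19, the highest each time without WT 504. Groups of fewer arrays separate more easily for any gene. The shares of all genes passing or without overlap are not given for the alternatives. The counts of genes passing or without overlap in the alternatives, here, below and in the results above, therefore cannot be set against the shares from the fit of all arrays. Probe sets called over the whole table were 411 with medians subtracted, 1201 with dim probe sets left out, 1593 with the trend and 8 to 23 with an array left out, where fewer arrays are fitted. Of the 130 further genes, 2, 4 and 9 were called under those 3 settings and 0 to 1 with an array left out; with medians subtracted 67 passed higher at an unadjusted p of 0.05 and the median was 0.33, and with an array left out these were 20 to 45 and 0.18 to 0.27. The median of cytoplasmic ribosomal proteins was 0.12 and of mitochondrial ones 0.29 with medians subtracted; with an array left out they were -0.0075 to 0.028 and 0.135 to 0.24, and 1 mitochondrial gene was called with quantile, cyclic loess or medians subtracted, 2 with the filter and 5 with the trend. The sign turned for the following factors (the cause was not tested). With medians subtracted Dkc1 was at 0.090, Nhp2 at 0.093, Polr1a at 0.093 and Rrs1 at 0.047; with quantile Nhp2 was at 0.020 and Polr1a at 0.064, and with cyclic loess Polr1a at 0.018. With probe sets averaged Ncl was at -0.031, Wdr12 at -0.0043 and Rrs1 at 0.038, and without _x_at and _s_at probe sets Rrs1 was at 0.14. With an array left out the ranges were -0.048 to 0.11 for Ncl, -0.083 to 0.017 for Dkc1, -0.0083 to 0.17 for Nop10, -0.16 to 0.19 for Nhp2, -0.22 to 0.093 for Polr1a, -0.20 to 0.15 for Utp20, -0.022 to 0.26 for Wdr12, -0.23 to 0.12 for Rrs1, -0.028 to 0.14 for Gnl3, -0.11 to 0.20 for Rrp1b and -0.033 to 0.32 for Mybbp1a. No paired analysis was possible because the titles of KO and WT mice share no number. With 3 arrays against 3, factors with an SE near the upper end (0.22) allow only coarse intervals.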

Other observations

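Structural proteins of the ribosome did not all sit where the assembly factors did. Of 46 measured cytoplasmic ribosomal protein genes, whose products form the ribosome itself, 27 were above 0 and 19 below 0 with a median KO minus WT of 0.005 (log2), and 0 passed at an unadjusted p of 0.05, where 21% of all genes passed. Of 76 mitochondrial ribosomal protein genes 66 were above 0 (86.8%) with a median of 0.175, near the 86.1% and 0.17 of the 36 factors. At an unadjusted p of 0.05, 14 passed higher (18.4%, against 8.34% of all genes) and 0 lower, against 12.7% of all genes. Among the 9081 genes in the 36 factors' range of brightness, 13% passed higher and 15.6% lower. Limma called 0 of the 76. The difference between these lists was not tested.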
